A study of Mus musculus with 12 samples.

Results

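The insulin and insulin-like growth factor (IGF) genes described here are Insr, Irs1, Irs2, Igf1, Igf1r, Igfbp1, Igfbp3, Igfbp4, Igfbp5 and Igfbp7. They were picked by gene name, and each name matched 1 of the 55421 genes in the table. RNA of the renal cortex was sequenced from 12 mice in 4 groups of 3, namely ANRIL knockout mice with diabetes (KO-D), ANRIL knockout controls (KO-C), wild-type mice with diabetes (WT-D) and wild-type controls (WT-C). Diabetes was induced by intraperitoneal streptozotocin, a toxin of the beta cells of the pancreas, at 50 mg/kg on 5 consecutive days, and the mice were followed for 2 months. By the study's methods the controls were littermates given citrate buffer and all mice were male, although the treatment text of the labels names streptozotocin for every sample. The knockout lacks a long interval of chromosome 4 that corresponds to a human noncoding risk interval of coronary artery disease, in every cell of the body, and no value was assigned to the ANRIL transcript here. The labels give the strain name of the deletion, 129S6/SvEvTac-Del[4C4-C5]1Lap/Mmcd, and an age of 8 weeks for all 12 mice, wild types included.

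Insulin and IGF-1 bind closely related receptors, the insulin receptor (Insr) and the type I IGF receptor (Igf1r). Both receptors phosphorylate the docking proteins Irs1 and Irs2, which recruit phosphatidylinositol 3-kinase and activate Akt, and Akt in turn keeps FOXO transcription factors out of the nucleus. IGF binding proteins, encoded by the Igfbp genes, hold IGFs in the circulation and in tissue, and proteases release the IGFs from them. In the kidney IGF-1 raises glomerular filtration, and the IGF system has long been studied in the early growth of the diabetic kidney. Streptozotocin diabetes is a state of insulin lack.

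The libraries held 23781928 to 67336174 counted reads. Levels are given as counts per 1000000 counted reads (CPM), scaled between libraries by the trimmed mean of M values (TMM-scaled CPM). Groups were compared with limma on log2(TMM-scaled CPM + 0.1), so that a fold change of a gene with a low level is understated. Adjustment of p-values followed Benjamini and Hochberg across the 18461 genes tested, and a gene was called at an adjusted p under 0.05. All 10 insulin and IGF genes passed the filter on low counts. Summed markers of proximal tubule, the main cell type of renal cortex, were at 1500 to 5983 TMM-scaled CPM in every library. On the first principal component, which held 50.9% of the variance, WT-D replicate 3 was at 5.92, against 47.9 to 66.0 in the other diabetic libraries and -65.4 to -33.0 in the controls. Adipocyte markers summed to 121 TMM-scaled CPM in WT-D replicate 1 and to at most 4.26 in any other library.

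In diabetic kidneys the genes that changed were IGF binding proteins, while the limma fit with TMM scaling of all 12 libraries did not call the ligand, the receptors or the docking proteins in any comparison. Other settings called Irs1 and Irs2, as given with these genes, and without scaling Insr was called over both genotypes (log2 change 0.44, adjusted p = 0.0191), where the median of all tested genes was 0.36. In whole cortex fewer cells of a type cannot be told apart from less RNA per cell. In WT-D versus WT-C, limma called 3 of the 10 genes, Igfbp3 and Igfbp5 as higher and Igfbp4 as lower, where 22.0% of all tested genes were called, 13.7% as higher and 8.22% as lower. In KO-D versus KO-C it called 2 of 10, Igfbp4 and Igfbp7, both lower, where 31.1% of all tested genes were called and 17.4% were lower. In KO-D versus WT-C it called 3 of 10, Igfbp5 as higher and Igfbp4 and Igfbp7 as lower, beside 40.1% of all tested genes, 19.4% as higher and 20.7% as lower. These shares lie close to or under those of all tested genes. The median log2 change of the 10 genes was 0.07 in WT-D versus WT-C and -0.15 in KO-D versus KO-C, where the median of all tested genes was 0.05 and 0.02. At the adjusted p of 0.01 that the study used, 0 of the 10 genes were called in WT-D versus WT-C, and 1, Igfbp4, in KO-D versus KO-C and in KO-D versus WT-C, where 8.33%, 17.1% and 23.4% of all tested genes were called. Counted by libraries alone, the groups did not overlap for 5 of the 10 genes in WT-D versus WT-C, 3 in KO-D versus KO-C, 6 in KO-D versus WT-C, 1 in KO-C versus WT-C and 2 in KO-D versus WT-D, where this held for 36.7%, 48.0%, 52.5%, 14.4% and 24.9% of all tested genes.

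With both genotypes pooled in the same fit, a contrast added after the data were seen, diabetes changed 5 of the 10 genes. Igfbp3 and Igfbp5 were higher and Igfbp1, Igfbp4 and Igfbp7 were lower in diabetic mice, while 43.5% of all tested genes were called, 21.9% as higher and 21.6% as lower. Igfbp4 fell to between 205 and 538 TMM-scaled CPM in the diabetic libraries, against 590 to 1073 in the control libraries, and was the only one of the 10 whose diabetic and control libraries did not overlap over both genotypes (5.40% of all tested genes were lower without overlap).

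The split of the calls by direction depended on how libraries were scaled. In KO-D versus KO-C, 0 of 2 calls were in the higher direction with TMM scaling, 1 of 2 with upper-quartile scaling and 2 of 3 without scaling. In KO-D versus WT-C the same counts were 1 of 3, 3 of 5 and 4 of 5, and over both genotypes they were 2 of 5, 2 of 4 and 4 of 5. In WT-D versus WT-C they were 2 of 3, 2 of 3 and 2 of 2. Without scaling, all tested genes had a median log2 change of 0.42 in WT-D versus WT-C, 0.35 in KO-D versus KO-C and 0.54 in KO-D versus WT-C, and with upper-quartile scaling one of 0.15 in KO-D versus KO-C.

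**Figure D1:**
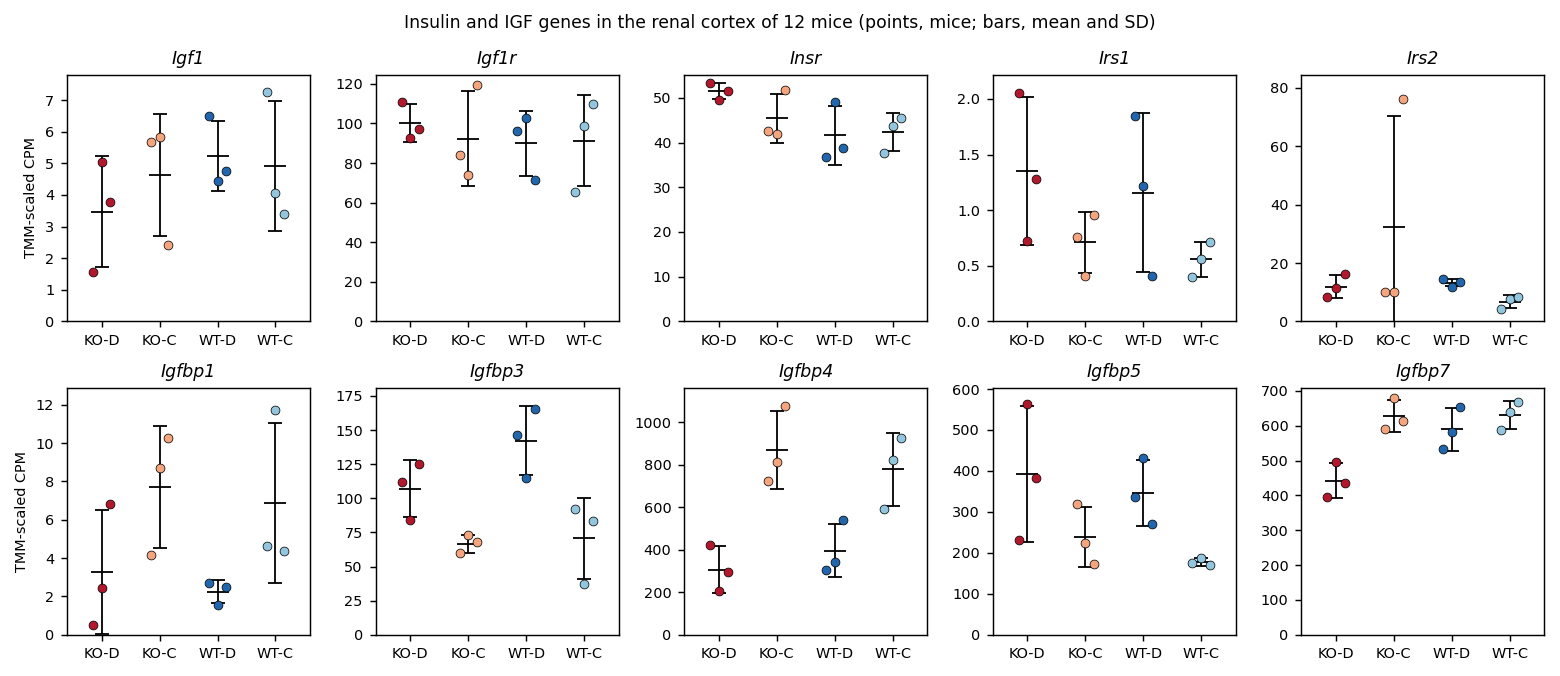
Levels of the 10 insulin and IGF genes in TMM-scaled CPM on linear axes that start at 0, with 1 point per mouse and bars for the mean and SD of 3 mice (the lower end of the KO-C bar of Irs2 is cut off at 0). Igfbp4 was at 205 to 538 in the diabetic mice and 590 to 1073 in the controls, and the KO-C bar of Irs2 is set by 1 mouse at 76.4.

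Levels were compared between genes per kilobase (kb) of merged exons. Over the 12 libraries the mean level was 474 TMM-scaled CPM per kb for Igfbp7, 133 for Igfbp4, 48.1 for Igfbp5 and 30.9 for Igfbp3, so that these 4 binding proteins stood above every other gene of the set. Igf1r followed with a mean of 5.56 CPM per kb, then Igfbp1 with 3.30, Insr with 3.29 and Irs2 with 2.54. Igf1 had a mean of 0.460 CPM per kb and Irs1 of 0.103. The order of these last genes differed between groups, since Irs2 lay above Igfbp1 in WT-D, at 2.10 and 1.48 CPM per kb with separate ranges, and below it in WT-C, at 1.07 and 4.52. The Irs2 mean over all libraries includes KO-C replicate 3 at 12.1 CPM per kb. In WT-C the ranges of neighbours in this order overlapped for Igfbp5 and Igfbp3, for Igf1r and Igfbp1, for Igfbp1 and Insr, and for Irs2 and Igf1. In the diabetic groups Igfbp4 and Igfbp5 overlapped as well, at 69.5 ± 24.6 and 65.3 ± 27.7 CPM per kb in KO-D (mean ± SD, n = 3 mice). In WT-C the same genes stood apart, at 176 ± 38.8 and 29.6 ± 1.52 CPM per kb. The gene with the fewest reads was Irs1, with 12 to 149 reads per library, while Igfbp7 had at least 12548.

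Igf1 (ENSMUSG00000020053, chromosome 10, 87858265 to 87937042, plus strand, mm10) encodes the ligand IGF-1, most of which circulates from the liver. Its level was 1.58, 5.06 and 3.78 TMM-scaled CPM in KO-D, 5.66, 5.84 and 2.40 in KO-C, 6.51, 4.45 and 4.74 in WT-D and 7.24, 4.06 and 3.40 in WT-C. All 4 groups overlapped. The log2 change was 0.15 in WT-D versus WT-C (95% interval -0.77 to 1.07) and -0.45 in KO-D versus KO-C (-1.37 to 0.47), and both intervals are wide for a gene with 50 to 526 reads per library.

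Igf1r (ENSMUSG00000005533, chromosome 7, 67952827 to 68233668, plus strand) encodes the receptor of IGF-1. It was at 111, 92.5 and 97.3 TMM-scaled CPM in KO-D, 83.9, 73.7 and 119 in KO-C, 95.9, 103 and 71.3 in WT-D and 65.5, 98.6 and 110 in WT-C. All 4 groups overlapped, and the KO-D mice spanned the narrowest range. Its log2 change was -0.0044 in WT-D versus WT-C (95% interval -0.48 to 0.47) and 0.15 in KO-D versus KO-C (-0.33 to 0.62).

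Insr (ENSMUSG00000005534, chromosome 8, 3122061 to 3279617, minus strand) encodes the insulin receptor. Its level was 53.3, 49.6 and 51.6 TMM-scaled CPM in KO-D, 42.5, 42.0 and 51.7 in KO-C, 36.8, 49.0 and 38.9 in WT-D and 37.6, 43.7 and 45.6 in WT-C. The 3 KO-D mice lay above all WT-D and all WT-C mice and overlapped KO-C. The log2 difference of KO-D versus WT-D was 0.32 ± 0.14 (SE), with an unadjusted p of 0.0434 and an adjusted p of 0.255. Within each genotype the log2 change with diabetes was 0.19 (95% interval -0.12 to 0.50) in KO-D versus KO-C and -0.03 (-0.34 to 0.28) in WT-D versus WT-C.

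The docking protein Irs1 (ENSMUSG00000055980, chromosome 1, 82233101 to 82291416, minus strand) had a low level in all groups. It was at 2.05, 0.722 and 1.28 TMM-scaled CPM in KO-D, 0.763, 0.412 and 0.956 in KO-C, 1.84, 1.22 and 0.413 in WT-D and 0.399, 0.561 and 0.713 in WT-C. The means of the diabetic groups were about double those of their controls, but WT-D replicate 3 lay within the WT-C range. For Irs1 the log2 change was 0.80 ± 0.48 (SE, adjusted p = 0.230) in KO-D versus KO-C and 0.76 ± 0.48 (adjusted p = 0.265) in WT-D versus WT-C, and 0.78 ± 0.34 over both genotypes (adjusted p = 0.0795). Over both genotypes Irs1 was called by edgeR (adjusted p = 0.0401), by DESeq2 (0.0261), without scaling (0.0256), without WT-D replicate 3 (0.00983) and without KO-D replicate 2 (0.0423). In WT-D versus WT-C its log2 change ran from 0.35 to 1.32 when 1 library was left out, and it was called without WT-D replicate 3 (1.32, adjusted p = 0.0376).

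Irs2 (ENSMUSG00000038894, chromosome 8, 10984681 to 11008458, minus strand), the docking protein that carries much of the insulin signal in liver, was dominated by 1 mouse. Its level was 8.40, 11.3 and 16.1 TMM-scaled CPM in KO-D, 10.2, 10.1 and 76.4 in KO-C, 14.5, 11.9 and 13.4 in WT-D and 4.19, 7.79 and 8.29 in WT-C. All mice of the other 3 groups lay above the WT-C mice, and KO-C replicate 3 stood far above the rest. In WT-D versus WT-C the log2 change was 1.02 ± 0.59 (SE, adjusted p = 0.223), and without KO-C replicate 3, whose spread enters the shared error, it was 1.02 with an adjusted p of 0.0202. A fit of those groups alone also called it (0.0323), and over both genotypes it was called without KO-C replicate 3 (0.60, 0.0319). The change in KO-D versus KO-C was -0.78 ± 0.59 (adjusted p = 0.338) with that mouse and 0.18 without it (adjusted p = 0.691). The same mouse also had the highest levels among the 12 of the gluconeogenic genes Pck1, at 3975 TMM-scaled CPM where the other KO-C mice were at 1564 and 1843, and G6pc, at 648 where they were at 430.5 and 440.

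Insulin represses Igfbp1 and Irs2 in liver, in part through FOXO factors that bind an insulin response element with the core CAAAACA. The letters CAAAACA or their reverse complement TGTTTTG occurred in 2064 of the 32851 RefSeq promoter windows (6.28%), each of 300 bases from 250 before to 50 after the start. A window was found for 9 of the 10 genes. Of these, Igfbp1, Irs1 and Irs2 held the letters, and GTAAACA or TGTTTAC, which occurred in 3.65% of all windows, was in none of the 9. The stretches around the matches are shown because they are the windows of the set that hold the letters. They come from RefSeq on GRCm38.p6, whose start can differ from that of the gene coordinates given above (for Irs2 it lies upstream of them), run 5′ to 3′ on the strand of the gene, and have the matched letters in capitals. A match is given as a description of the sequence only.
Igfbp1 (chr11:7197637-7197706, plus strand, match 108 bases before the start): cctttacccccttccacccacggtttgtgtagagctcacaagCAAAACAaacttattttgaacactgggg
Irs1 (chr1:82291460-82291559, minus strand, matches 111 and 32 bases before the start): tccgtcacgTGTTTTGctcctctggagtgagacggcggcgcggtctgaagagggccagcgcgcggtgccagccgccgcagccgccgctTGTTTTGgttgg
Irs2 (chr8:11008950-11009049, minus strand, match 37 bases before the start): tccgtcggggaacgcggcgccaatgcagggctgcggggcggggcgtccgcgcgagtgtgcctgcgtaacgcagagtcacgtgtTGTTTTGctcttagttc

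Igfbp1 (ENSMUSG00000020429, chromosome 11, 7197782 to 7202546, plus strand) encodes a small binding protein that rises in the blood when insulin is low. In the renal cortex it was lower in diabetic mice. Its level was 0.505, 2.46 and 6.84 TMM-scaled CPM in KO-D, 4.14, 8.72 and 10.3 in KO-C, 2.68, 1.56 and 2.51 in WT-D and 4.62, 11.7 and 4.35 in WT-C. The WT-D mice lay below all WT-C mice, while KO-D replicate 3 lay within the KO-C range. Neither genotype alone passed the test, with a log2 change of -1.72 ± 0.68 (SE, adjusted p = 0.0701) in KO-D versus KO-C and -1.45 ± 0.68 (adjusted p = 0.135) in WT-D versus WT-C. Leaving out 1 library moved the change in KO-D versus KO-C over -2.55 to -0.80, and it was called without KO-D replicate 3 (-2.55, 0.0112). A call in WT-D versus WT-C was made in a fit of those groups alone (0.0346) and without KO-D replicate 1 (0.0384). Over both genotypes the log2 change was -1.59 ± 0.48 (adjusted p = 0.0169). Without scaling this was -1.24 with an adjusted p of 0.0560, beside a median of all tested genes of 0.36.

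Igfbp3 (ENSMUSG00000020427, chromosome 11, 7206086 to 7213923, minus strand), the neighbour of Igfbp1 and the main carrier of IGFs in plasma, was higher in diabetic mice. It was at 112, 84.0 and 125 TMM-scaled CPM in KO-D, 59.7, 72.7 and 67.7 in KO-C, 147, 115 and 165 in WT-D and 92.5, 36.8 and 83.0 in WT-C. Diabetic and control mice did not overlap within either genotype. The log2 change was 1.10 ± 0.28 (SE, adjusted p = 0.0163) in WT-D versus WT-C, where the mean was 142 ± 25.5 in WT-D and 70.8 ± 29.8 in WT-C (SD, n = 3 mice each). It was 0.67 ± 0.28 (adjusted p = 0.0919) in KO-D versus KO-C and 0.88 ± 0.20 (adjusted p = 0.00341) over both genotypes. The call in WT-D was lost without WT-D replicate 1 (adjusted p = 0.0647), the library with adipocyte markers, at about the same log2 change of 1.07. In KO-D versus KO-C the gene was called with upper-quartile scaling (adjusted p = 0.0463), without scaling (0.00805), in a fit of those groups alone (0.0134), with DESeq2 (0.0488) and without WT-C replicate 2 (0.00892).

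Igfbp4 (ENSMUSG00000017493, chromosome 11, 99041244 to 99054392, plus strand) encodes a binding protein that mainly inhibits IGF action and is cleaved by the protease pappalysin 1. It was the only gene of the set called in both genotypes. Its level was 421, 205 and 294 TMM-scaled CPM in KO-D, 721, 812 and 1073 in KO-C, 304, 343 and 538 in WT-D and 590, 819 and 926 in WT-C. The mean fell to 307 ± 109 in KO-D, against 869 ± 183 in KO-C, and to 395 ± 125 in WT-D, against 778 ± 171 in WT-C (SD, n = 3 mice each). The log2 change was -1.54 ± 0.29 (SE, adjusted p = 0.00151) in KO-D versus KO-C, -0.998 ± 0.286 (adjusted p = 0.0259) in WT-D versus WT-C and -1.27 ± 0.20 (adjusted p = 0.000328) over both genotypes. The call in KO-D versus KO-C held in every alternative run, with the adjusted p at most 0.00842. The call in WT-D was lost without WT-C replicate 2 (adjusted p = 0.0693), WT-C replicate 3 (0.0876), WT-D replicate 1 (0.124) or WT-D replicate 2 (0.0910), without the filter (0.0588) and without scaling (0.0823). Without scaling the log2 change in WT-D versus WT-C was -0.61, beside an all-gene median of 0.42.

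Igfbp5 (ENSMUSG00000026185, chromosome 1, 72857932 to 72874884, minus strand) encodes a binding protein that associates with extracellular matrix. It was higher in diabetic mice, at 230, 563 and 383 TMM-scaled CPM in KO-D, 320, 223 and 174 in KO-C, 337, 431 and 270 in WT-D and 175, 188 and 170 in WT-C. WT-D and WT-C did not overlap, while KO-D replicate 1 and KO-C replicate 1 did. The log2 change was 0.94 ± 0.29 (SE, adjusted p = 0.0368) in WT-D versus WT-C, 0.67 ± 0.29 (adjusted p = 0.1004) in KO-D versus KO-C, 1.05 ± 0.29 (adjusted p = 0.0126) in KO-D versus WT-C and 0.80 ± 0.21 (adjusted p = 0.00718) over both genotypes. The call in WT-D versus WT-C was lost without the filter (adjusted p = 0.0722) and on leaving out any of 7 libraries, namely WT-C replicates 1, 2 and 3 (0.0936, 0.0662 and 0.0886), WT-D replicates 1 and 2 (0.106 and 0.140), KO-C replicate 2 (0.0527) and KO-D replicate 3 (0.0509). The call in KO-D versus WT-C was lost without KO-D replicate 2 (0.0573). A call in KO-D versus KO-C was made without KO-C replicate 1 (0.0450), without KO-D replicate 1 (0.0144), without scaling (0.0433) and with DESeq2 (0.0491).

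Igfbp7 (ENSMUSG00000036256, chromosome 5, 77349240 to 77408041, minus strand) encodes a secreted protein that binds IGFs with low affinity and insulin as well, and in humans it is measured in urine as a marker of kidney stress. It had the highest level of the set and was lower in KO-D. The 3 KO-D mice were at 396, 496 and 435 TMM-scaled CPM, below all mice of the other groups, which were at 592, 680 and 615 in KO-C, 532, 582 and 654 in WT-D and 589, 639 and 668 in WT-C. Its log2 change was -0.51 ± 0.15 (SE, adjusted p = 0.0227) in KO-D versus KO-C, -0.52 ± 0.15 (adjusted p = 0.0172) in KO-D versus WT-C, -0.41 ± 0.15 (adjusted p = 0.154) in KO-D versus WT-D and -0.10 ± 0.15 (adjusted p = 0.653) in WT-D versus WT-C. The change in knockouts minus that in wild types was -0.41 ± 0.22 with an unadjusted p of 0.0831 and an adjusted p of 0.425, so that an effect particular to the knockout was not shown. The call in KO-D versus KO-C was lost without KO-C replicate 1 (adjusted p = 0.0609), KO-C replicate 2 (0.127), KO-D replicate 1 (0.0829) or KO-D replicate 3 (0.0761) and with upper-quartile scaling (0.0796). The call in KO-D versus WT-C was lost without WT-C replicate 2 (0.0640), WT-C replicate 3 (0.0797), KO-D replicate 1 (0.0679) or KO-D replicate 3 (0.0570). Over both genotypes its log2 change of -0.31 ± 0.11 (adjusted p = 0.0352) was not called with upper-quartile scaling (0.0953), without scaling or without the filter (0.0710), nor without any of 8 libraries, namely KO-D replicates 1 and 3 (0.0827 and 0.0743), KO-C replicates 1 and 2 (0.0650 and 0.115), WT-D replicates 1 and 2 (0.0824 and 0.0692) and WT-C replicates 2 and 3 (0.0897 and 0.108). Without scaling the log2 change was -0.17 (adjusted p = 0.455) in KO-D versus KO-C and 0.02 (0.944) in KO-D versus WT-C, beside all-gene medians of 0.35 and 0.54, so that the gene stayed below the median in both. Its gene span overlaps that of Polr2b, which had at most 64.5 CPM as deposited where Igfbp7 had at least 434, and the TruSeq RNA V2 kit does not mark strand. Whether their exons overlap was not tested.

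**Figure D2:**
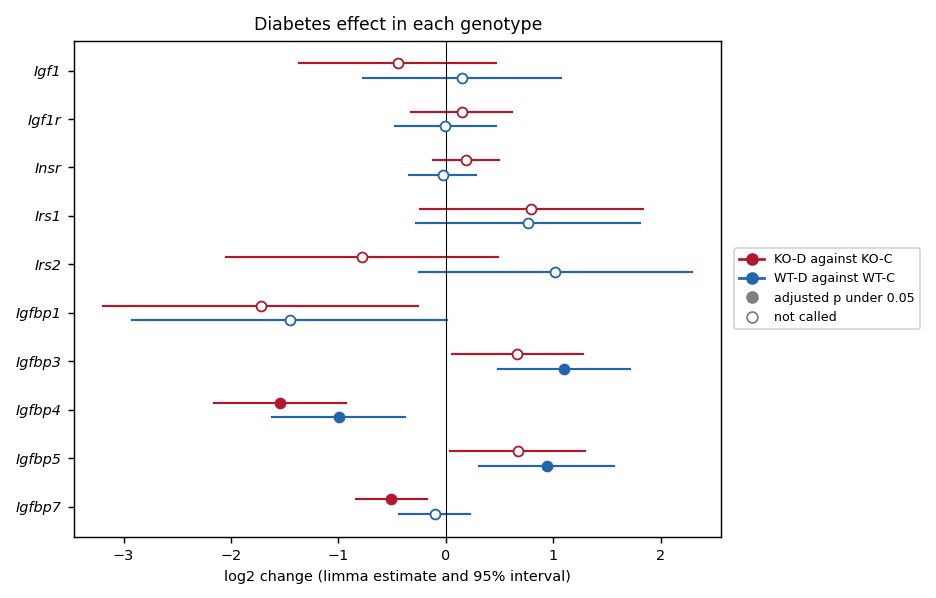
Log2 change with diabetes in KO-D versus KO-C (red, upper of each pair) and WT-D versus WT-C (blue, lower) from limma, with 95% intervals, for the 10 insulin and IGF genes (3 mice per group). Filled points have an adjusted p under 0.05, and Igfbp4 is the only gene filled in both genotypes, at -1.54 in KO-D and -0.998 in WT-D.

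None of the 10 genes was called when the genotypes were compared. In KO-C versus WT-C limma called 0 of the 10 and 0 of all 18461 genes at an adjusted p under 0.05, with a smallest adjusted p of 0.586. The unadjusted p was under 0.05 for 8.37% of all tested genes and for 1 of the 10, Irs2 (0.0170), whose log2 difference of 1.61 ± 0.59 (SE) was 0.64 without KO-C replicate 3. Over all genes edgeR called 0 and DESeq2 called 13 there, with 0 of the 10 in either. In KO-D versus WT-D limma called 0 of 10, against 5.53% of all tested genes, and 2 of the 10, Insr and Igfbp7, had an unadjusted p under 0.05, as 18.1% of all tested genes had. Over all genes edgeR called 1049 and DESeq2 called 1591 in KO-D versus WT-D, with 0 of the 10 in either. The interaction test, which asks whether diabetes changed a gene unequally in the 2 genotypes, called 0 of the 10 and 0 of all tested genes in limma, with an unadjusted p under 0.05 for 14.6% of all tested genes and for 1 of the 10, Irs2. Over all genes edgeR called 0 and DESeq2 called 708, with 0 of the 10 in either. The wide intervals do not show that the diabetes effects were equal, and for Igfbp4 that of the difference ran from -1.42 to 0.33 on the log2 scale.

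A further 58 genes of insulin and IGF signaling were listed by role, and 54 passed the filter on low counts. The lists were drawn up with earlier results of these data known. Their shares beside those of all tested genes therefore describe the lists and are no test of them. Ins2, Igf2, Igfbpl1 and Irs4 did not. Limma called 15 of the 54 in WT-D versus WT-C, 13 as higher and 2 as lower, which is 27.8% of them beside 22.0% of all tested genes. For KO-D versus KO-C it called 22, 11 as higher and 11 as lower, or 40.7% beside 31.1% of all tested genes. With upper-quartile scaling 17 of 26 calls in KO-D versus KO-C were in the higher direction, and without scaling 18 of 22, while in WT-D versus WT-C 24 of 24 calls were higher without scaling. Under these settings the median of all tested genes was itself above 0. It was 0.15 and 0.35 in KO-D versus KO-C, and 0.42 in WT-D versus WT-C. The lean to higher calls is thus not particular to these genes. In KO-D versus WT-D 2 of the 54 were called, Igfals and Pik3r2, both lower in KO-D, as were 5.43% of all tested genes. In KO-C versus WT-C limma, edgeR and DESeq2 each called 0 of the 54.

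Of the 5 listed proteases that cut IGF binding proteins and their inhibitors, all 5 were called in KO-D versus KO-C, where 31.1% of all tested genes were called, and 4 in WT-D versus WT-C, where 22.0% were. Because this list too was drawn up with earlier results of these data known, these counts are no test of it. The exception in WT-D was Pappa2, a related protease, with a log2 change of 0.22 (adjusted p = 0.612). Pappa, which encodes pappalysin 1, the protease of Igfbp4, was at 12.1, 10.05 and 11.6 TMM-scaled CPM in KO-D, 3.17, 2.89 and 3.33 in KO-C, 11.3, 11.9 and 6.12 in WT-D and 2.36, 1.37 and 1.46 in WT-C. Its log2 change was 1.81 (adjusted p = 0.000317) in KO-D versus KO-C and 2.41 (adjusted p = 0.000117) in WT-D versus WT-C. The genes of its inhibitors, the stanniocalcins Stc1 and Stc2, were higher as well.

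Stc1 was at 11.5, 10.5 and 18.1 TMM-scaled CPM in KO-D, 2.08, 2.19 and 2.17 in KO-C, 13.9, 16.3 and 10.3 in WT-D and 2.29, 2.21 and 1.77 in WT-C. Stc2 was at 7.68, 7.26 and 7.64 TMM-scaled CPM in KO-D, 1.79, 1.81 and 1.22 in KO-C, 7.40, 6.49 and 6.70 in WT-D and 0.997, 0.701 and 1.53 in WT-C. Within each genotype no diabetic mouse overlapped a control for Pappa, Stc1 or Stc2. Groups did not overlap, in either direction, for 48.0% of all tested genes in KO-D versus KO-C and 36.7% in WT-D versus WT-C. These genes were named for a small p in the same comparisons, so the lack of overlap adds no support. The log2 change of Stc1 was 2.54 (adjusted p = 2.93e-05) in KO-D versus KO-C and 2.62 (2.75e-05) in WT-D versus WT-C, and that of Stc2 was 2.18 (0.000106) and 2.63 (5.48e-05). Htra1, a serine protease that degrades Igfbp5, was lower, with a mean of 78.7 ± 14.7 TMM-scaled CPM in KO-D and 131 ± 22.6 in KO-C, and of 88.5 ± 16.1 in WT-D and 151 ± 18.7 in WT-C (SD, n = 3 mice each). Its log2 change was -0.74 (adjusted p = 0.00840) in KO-D versus KO-C and -0.78 (0.0104) in WT-D versus WT-C, and neither call held without scaling (adjusted p = 0.0875 and 0.0961) nor that in WT-D without WT-D replicate 1 (0.0609). Without scaling the log2 change of Htra1 was -0.39 in each genotype, beside all-gene medians of 0.35 and 0.42, so that it stayed below the median in both.

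Igfals, the acid-labile subunit that holds Igfbp3 and IGF-1 in a large complex in plasma, was the only tested gene of the ligand and carrier list. It was at 1.77, 0.985 and 1.10 TMM-scaled CPM in KO-D, 5.69, 6.69 and 6.72 in KO-C, 3.39, 1.88 and 4.47 in WT-D and 5.25, 5.75 and 4.72 in WT-C. The KO-D mice lay below all others, and WT-D below both control groups. The log2 change was -2.26 (adjusted p = 0.000182) in KO-D versus KO-C, -0.75 (0.0780) in WT-D versus WT-C and -1.23 (0.0280) in KO-D versus WT-D. The gene was called in WT-D versus WT-C with DESeq2 (0.0449) and without WT-D replicate 3 (-1.01, 0.0192). The call in KO-D versus WT-D was lost without WT-D replicate 1 (0.101), WT-D replicate 3 (0.135), KO-D replicate 2 (0.0638) or KO-D replicate 3 (0.139), without scaling (0.0777) and in a fit of those groups alone (0.136). Without scaling the log2 change there was -1.10, beside an all-gene median of 0.13. Igfbp2, another binding protein, was called in WT-D versus WT-C with a log2 change of 2.27 (adjusted p = 0.0406). It had 209, 17 and 28 reads in the WT-D libraries and 19, 1 and 1 in the WT-C libraries, the groups overlapped in TMM-scaled CPM, and the call was lost in edgeR (0.0637) and without any of 5 libraries, namely WT-D replicates 1 and 3 (0.197 and 0.0526), WT-C replicates 2 and 3 (0.119 and 0.119) and KO-D replicate 3 (0.0548).

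**Figure D3:**
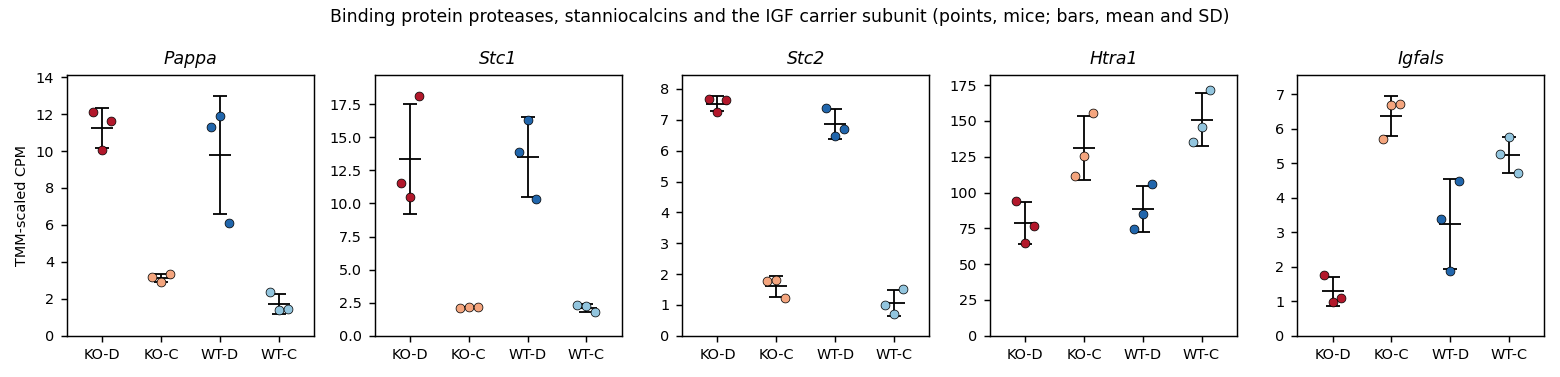
Levels of Pappa, Stc1, Stc2, Htra1 and Igfals in TMM-scaled CPM on linear axes that start at 0, with 1 point per mouse and bars for the mean and SD of 3 mice. Pappa was at 6.12 to 12.1 in the diabetic mice and 1.37 to 3.33 in the controls, and Igfals was at 0.985 to 1.77 in KO-D, under all other groups.

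Of the 13 tested adaptors and kinases, 6 (46.2%) were called in KO-D versus KO-C and 4 (30.8%) in WT-D versus WT-C, beside 31.1% and 22.0% of all tested genes. Higher in both genotypes were Pik3r3, a regulatory subunit of phosphatidylinositol 3-kinase, with a log2 change of 1.36 in KO-D and 1.40 in WT-D, and Pik3cd, a catalytic subunit, with 1.18 in KO-D and 1.41 in WT-D. The Pik3cd call was lost without KO-C replicate 2 (adjusted p = 0.0589) or KO-D replicate 2 (0.0540) in KO-D versus KO-C and without WT-D replicate 1 (0.0518) in WT-D versus WT-C. Pik3r2, the regulatory subunit p85 beta, was lower in KO-D, at 6.95, 9.75 and 6.27 TMM-scaled CPM in KO-D, 17.8, 16.1 and 18.6 in KO-C, 18.6, 11.1 and 14.8 in WT-D and 12.2, 17.6 and 13.6 in WT-C. The KO-D mice lay below all others. Its log2 change was -1.20 (adjusted p = 0.00124) in KO-D versus KO-C, 0.02 (0.957) in WT-D versus WT-C and -0.94 (0.0261) in KO-D versus WT-D. In KO-D versus WT-D the call was lost without any of 7 libraries, namely WT-D replicates 1 and 3 (0.111 and 0.115), KO-D replicates 1 and 3 (0.0983 and 0.146), KO-C replicates 1 and 2 (0.0565 and 0.0543) and WT-C replicate 3 (0.0530). The receptor list held 1 call of 3, the growth hormone receptor Ghr, which was lower in KO-D versus KO-C with a log2 change of -0.47 (adjusted p = 0.0478), and this call was lost without any single library other than WT-D replicate 1.

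Among 11 genes that restrain the pathway, 3 (27.3%) were called in each genotype, beside 31.1% of all tested genes in KO-D versus KO-C and 22.0% in WT-D versus WT-C. Trib3, a pseudokinase that binds Akt, was higher, at 1.96, 1.97 and 1.87 TMM-scaled CPM in KO-D, 0.968, 0.698 and 0.666 in KO-C, 3.35, 1.72 and 3.37 in WT-D and 0.399, 0.308 and 0.679 in WT-C. Its log2 change was 1.23 (adjusted p = 0.00982) in KO-D versus KO-C and 2.37 (0.000449) in WT-D versus WT-C. Grb14, an adaptor that inhibits the insulin receptor, was higher by 0.72 (0.00200) and 0.74 (0.00329) on the log2 scale. Socs3, a suppressor of cytokine signaling, was called in WT-D versus WT-C with 1.87 (0.0119), a call lost without WT-D replicate 1 (0.0651), and had 1.13 (0.0735) in KO-D versus KO-C. In KO-D versus KO-C Socs3 was called with DESeq2 (0.0344), with upper-quartile scaling (0.0463) and without scaling (0.0276). It was also called there without KO-C replicate 3 (0.038) or KO-D replicate 1 (0.0268). Ptpn1, a phosphatase that acts on the insulin receptor, was lower in KO-D versus KO-C at -0.78 (0.00592), a call lost without scaling (0.152), and had 0.22 in WT-D versus WT-C. Without scaling Ptpn1 was at -0.44 in KO-D versus KO-C, beside an all-gene median of 0.35.

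Of 13 downstream effectors, 3 (23.1%) were called in KO-D versus KO-C and 2 (15.4%) in WT-D versus WT-C. Over all tested genes the shares were 31.1% and 22.0%. Mtor, the kinase of both mTOR complexes, was lower in both genotypes. It was at 108, 99.96 and 92.8 TMM-scaled CPM in KO-D, 148, 154 and 178 in KO-C, 110, 112 and 127 in WT-D and 176, 158 and 153 in WT-C. All diabetic mice lay below all controls, where this held for 5.40% of all tested genes. Its log2 change was -0.67 (adjusted p = 0.00178) in KO-D versus KO-C and -0.48 (0.0190) in WT-D versus WT-C, and the call in WT-D was lost without WT-D replicate 1 (0.0849) or 2 (0.0700) and in a fit of those groups alone (0.0682). Without scaling neither was called, at -0.33 (0.0761) and -0.10 (0.606), beside all-gene medians of 0.35 and 0.42, so that Mtor stayed below the median in both. Rptor, which defines mTOR complex 1, was lower in KO-D versus KO-C at -1.005 (0.00286), and had 0.11 (0.724) in WT-D versus WT-C. Without scaling it was not called in KO-D versus KO-C, at -0.66 (0.0595), beside an all-gene median of 0.35. Rictor, which defines mTOR complex 2, was higher in KO-D versus KO-C at 0.67 (0.0237). That call was lost without KO-C replicate 2 (0.103), KO-D replicate 1 (0.0579) or KO-D replicate 3 (0.0740). In WT-D versus WT-C Rictor had 0.46 (0.117). It was called there without WT-D replicate 3 (0.71, 0.0115) and without scaling (0.84, 0.038), where the all-gene median was 0.42. Foxo3 was called in WT-D versus WT-C at 0.66 (0.0308), and the call was lost without any of 5 libraries, namely WT-C replicates 1 and 3 (0.134 and 0.0503), WT-D replicates 1 and 2 (0.0518 and 0.137) and KO-C replicate 2 (0.0501). It was also lost without the filter (0.0555) and in a fit of those groups alone (0.0644). In KO-D versus KO-C Foxo3 had 0.47 (0.0867). A call was made there with upper-quartile scaling (0.0295), without scaling (0.0233) and in a fit of those groups alone (0.0417). Leaving out WT-C replicate 1 (0.04898) or KO-D replicate 2 (0.04905) gave a call there too.

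Of 6 genes that FOXO factors are known to activate, 3 (50%) were called in KO-D versus KO-C and 1 (16.7%) in WT-D versus WT-C. Over all tested genes the shares were 31.1% and 22.0%. Sesn3, a sestrin, was higher in both genotypes, with a log2 change of 0.64 (adjusted p = 0.0105) in KO-D versus KO-C and 0.83 (0.00455) in WT-D versus WT-C. The gluconeogenic genes Pck1 and G6pc, which proximal tubules express, were lower in KO-D versus KO-C. Pck1 had a mean of 714 ± 325 TMM-scaled CPM in KO-D and 2461 ± 1319 in KO-C (SD, n = 3 mice each), with a log2 change of -1.76 (0.00926). G6pc had a mean of 167 ± 76.0 in KO-D and 506 ± 123 in KO-C, with a log2 change of -1.68 (0.00823). In WT-D versus WT-C the estimates were also below 0, at -0.96 for Pck1 (0.132) and -0.93 for G6pc (0.119), and neither was called. Both were called without WT-D replicate 3 (0.0214 for Pck1 and 0.0309 for G6pc), and G6pc also without WT-C replicate 1 (0.0432).

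**Figure D4:**
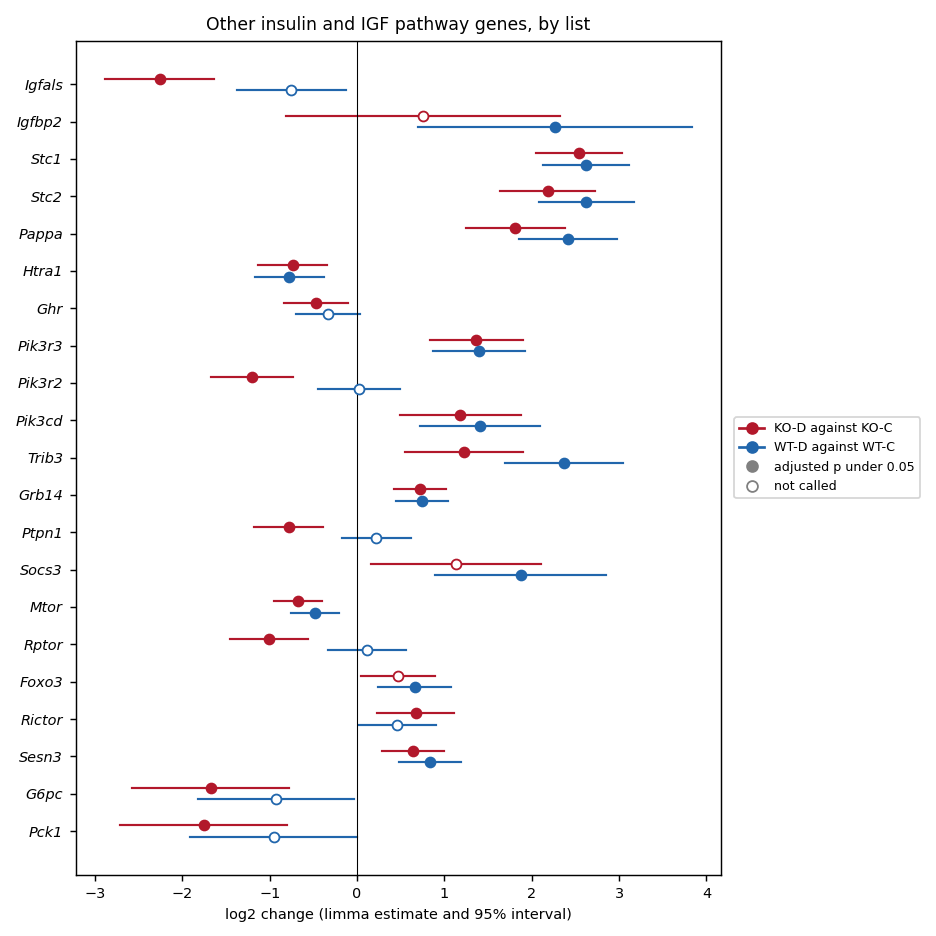
Log2 change with diabetes in KO-D versus KO-C (red, upper of each pair) and WT-D versus WT-C (blue, lower) from limma, with 95% intervals, for further pathway genes in the order of their lists (3 mice per group). Filled points have an adjusted p under 0.05, and Stc1 has the highest estimate in KO-D, 2.54.

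Markers of other cell types were counted too. In KO-D versus KO-C limma called 4 of 4 podocyte, 3 of 6 endothelial, 5 of 6 stromal and 4 of 6 macrophage markers as higher and 4 of 5 proximal tubule markers as lower, where 31.1% of all tested genes were called. In WT-D versus WT-C it called 4 of 4, 5 of 6, 6 of 6 and 5 of 6 of the same lists as higher and 0 of 5 proximal tubule markers, where 22.0% of all tested genes were called. Summed stromal markers were at 87.9 to 159 TMM-scaled CPM in KO-D and 43.6 to 57.3 in KO-C, and at 188 to 234 in WT-D and 37.9 to 85.3 in WT-C. Summed endothelial markers were at 173 to 241 in KO-D and 93.1 to 170 in KO-C, and at 165 to 250 in WT-D and 74.9 to 121 in WT-C. Summed proximal tubule markers were at 1500 to 2752 in KO-D and 4408 to 5983 in KO-C, and at 2309 to 3047 in WT-D and 2837 to 4759 in WT-C. No marker of these 5 lists was at 0 in any library. Of the other lists, distal convoluted tubule had 3 of 3 called higher in KO-D, lymphocyte 3 of 4 and injured tubule 2 of 3. WT-D had 2 of 3, 0 of 4 and 1 of 3, each genotype against its own controls. Thick ascending limb and adipocyte had 0 of 3 in both. Collecting duct had 1 of 4 higher and 1 lower in KO-D and 0 in WT-D. Hepatocyte had 1 of 3 higher and 1 lower in KO-D and 1 higher in WT-D. The part of these differences in the changes of the binding proteins was not tested.

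The genes with the pattern most like that of each called binding protein were found by the root mean square (RMS) difference of centred log2 levels over the 12 libraries, among 12165 genes. Closest to Igfbp4 were Slc37a4, the glucose-6-phosphate transporter, Sypl2 and Ces1e, with RMS differences of 0.15 to 0.16 where the median over all candidates was 0.76. Closest to Igfbp3 were Rftn1, Speg and Il33, an alarmin cytokine, with 0.26 to 0.27 (median 0.66), and closest to Igfbp5 were Neurl1a, Rufy4 and Fmnl2 with 0.15 to 0.18 (median 0.63). Closest to Igfbp7 were Prpsap1, Cyth2 and Rrp7a with 0.068 to 0.074 (median 0.38). Closest to Igfbp1 were Depp1, Aldh3b3 and Rdh16f2 with 0.66 to 0.75 (median 1.19). An RMS difference depends on the gene's own spread, so these values are not compared between the binding proteins. The SD of the log2 level over the 12 libraries was 1.22 for Igfbp1, 0.76 for Igfbp4, 0.60 for Igfbp3, 0.57 for Igfbp5 and 0.25 for Igfbp7. All these genes share libraries, depth and the same diabetic contrast.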

How the data were processed

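Renal cortex RNA of 12 male mice was sequenced with the TruSeq RNA V2 kit, which does not mark strand. Per the submitters' processing notes and the study's methods, the authors aligned reads to mm10 with STAR 2.7.3a and counted them per gene of GENCODE with summarizeOverlaps. The deposited CPM values were made by the authors with R 3.6.1 and edgeR 3.28.0, and each library sums to 1000000. All 298586 values above 0 gave whole reads within 0.01 reads, so depth was known, at 23781928 to 67336174 reads. A second deposited table holds the authors' log2 fold changes and adjusted p-values of 5 comparisons and was not used.

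Groups came from the labels. Genes were kept by filterByExpr of edgeR (minimum count 10, total 15), which left out 36960 of 55421. The main test was limma 3.58.1 with trend (R 4.3.3, edgeR 4.0.16) on log2(TMM-scaled CPM + 0.1), two-sided, with 4 group means over 12 libraries, and was tested on simulated data. It replaces a count test because the deposited unit is CPM. On the recovered reads edgeR and DESeq2 1.42.0 were run as alternatives, beside other scalings, pseudocounts of 0.5 and 1, other filters, fits of the compared groups, a replicate block and each library left out. All 10 genes are named with every value. From each other pathway list, up to 4 called genes with the smallest p in WT-D versus WT-C or KO-D versus KO-C are named, with Igfals and Pik3r2 also for KO-D versus WT-D, and for each called gene the 3 most alike in pattern among genes with a mean of at least 1 CPM. A gene that this rule names is not reported here. The genes and lists were chosen with earlier results of these data known. Every mouse is a separate sample, with 3 mice per group. The p-values of the main test rest on the spread between mice within groups, pooled over the 4 groups and moderated across genes. Promoter windows came from RefSeq (GRCm38.p6), where Insr had none. Counting error is the only error that reads alone describe.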

Additional observations from a re-analysis of the deposited data

Results flagged for a closer look

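A rule on single mice, with no cutoff on p, flagged Irs2 alone among 32 genes checked. All its WT-D values lay above the mean log2 level of WT-C, and all its KO-D values lay below that of KO-C. The change in knockouts minus that in wild types was -1.80 on the log2 scale in limma (unadjusted p = 0.0494, adjusted p = 0.342). The WT-D mice all lay above the WT-C mice, and the KO-D mice overlapped the KO-C mice, where KO-C replicate 3 was at 76.4 TMM-scaled CPM and the other 2 were at 10.1 and 10.2. Without that mouse the difference was -0.84.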

How the results depend on the processing

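Most values kept direction and call (904 single values under settings that keep every library). Without scaling, where the median of all tested genes was itself 0.42, 0.54 and 0.36 in WT-D versus WT-C, KO-D versus WT-C and over both genotypes, values turned positive but stayed below that median for Ghr (0.050), Igf1r (0.38), Insr (0.35) and Igfbp7 (0.28) in WT-D versus WT-C, for Igfbp7 (0.02) in KO-D versus WT-C, and over both genotypes for Igf1 (0.20) and Igfbp7 (0.056). Igf1r in WT-D versus WT-C also turned with upper-quartile scaling (0.0012), no filter (0.0034), a mean of 1 CPM (0.026) and the compared groups alone (0.016), Pik3r2 there with RLE scaling (-0.017) and DESeq2 (-0.0040), and Irs2 over both genotypes in edgeR (-0.23) and DESeq2 (-0.24).

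The number of the 10 genes called in WT-D versus WT-C was 1 with no filter, 5 in the compared groups alone and 0 at 0.01 (8.33% of all tested genes). In KO-D versus KO-C it was 4 with DESeq2 and 1 at 0.01 (17.1% of all tested genes), in KO-D versus WT-C 5 with upper-quartile scaling, 5 without scaling and 1 at 0.01 (23.4%), and over both genotypes 3 at 0.01. Of the other pathway genes, WT-D versus WT-C had 24 without scaling and 9 at 0.01. KO-D versus WT-D had 0 without scaling, 0 in the compared groups alone, 0 at 0.01 and 5 with DESeq2, and the interaction test had 5 with DESeq2. Over all 18461 genes DESeq2 called 1591 in KO-D versus WT-D and 708 in the interaction test. Here and with libraries left out, a count with no share of all tested genes beside it describes the listed genes only.

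With 1 library left out, the number of the 10 genes called was 0 to 4 in WT-D versus WT-C (0 without WT-D replicate 1, 1 without WT-D replicate 2, WT-C replicate 2 or WT-C replicate 3) and 1 to 3 in KO-D versus KO-C (1 without KO-C replicate 2). Of the other pathway genes it was 8 to 19 in WT-D versus WT-C, 0 to 5 in KO-D versus WT-D and 0 to 5 in the interaction test. Log2 changes crossed 0 in WT-D versus WT-C for Igf1 (-0.061 to 0.43), Igf1r (-0.26 to 0.17), Insr (-0.16 to 0.051), Pik3r2 (-0.16 to 0.21) and Rptor (-0.075 to 0.24), in KO-D versus KO-C for Igf1 (-0.86 to 0.014) and Irs2 (-1.23 to 0.18), and over both genotypes for Igf1 (-0.36 to 0.081), Igf1r (-0.037 to 0.18) and Irs2 (-0.11 to 0.60). The cause was not tested.

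Same-numbered libraries did not pair (correlations -0.35 to 0.29, with 1 of 12 libraries closest to its own number). With a replicate block, 0 other pathway genes were called in KO-D versus WT-D, Ghr lost its call in KO-D versus KO-C (adjusted p = 0.0575) and Socs3 gained one (0.0435). Of the 10 genes, Irs1 had the fewest reads, 12 to 149 per library.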
